A study of Mus musculus with 4 samples.

Results

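The chromatin around Id2 and Id3 was examined for sites cut by DNase I in mouse CD8+ T cells. Members were the listed DNase I peaks with a midpoint in chr12:25700000-26050000, which holds Id2 at about 25.779 to 25.781 Mb, or in chr4:135660000-135760000, which holds Id3 at about 135.7 Mb (mm9 throughout). Of 84735 peaks in 4 lists, 51 were members, 28 in the Id2 window and 23 in the Id3 window. Peaks that overlapped by at least 1 bp were joined, which gave 29 regions out of 38986, 19 at Id2 and 10 at Id3. The windows were set by position and not by any measured value.

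Id2 and Id3 encode inhibitors of DNA binding. These small helix-loop-helix proteins lack a basic region, pair with E proteins such as E2A and HEB, and keep them off the E-box sequences that E proteins bind. In CD8+ T cells Id2 is known for its part in effector cells and Id3 for its part in long-lived memory precursors, and the pair are often described as opposed markers of those fates. Tcf1 and Lef1, encoded by Tcf7 and Lef1, are related HMG-box DNA-binding proteins of the T lineage with known roles in naive and memory cells.

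All donors carried hCD2-Cre, a Cre recombinase transgene under human CD2 regulatory elements, and Rosa26-lsl-GFP, a reporter that turns green once Cre has acted. The Tcf1 and Lef1 genes were wild type in the controls (WT, 2 libraries) and floxed in the mutants, whose cells are labelled Tcf1-/-Lef1-/- (DKO, double knockout, 2 libraries). GFP+ TCRbeta+ CD62Lhi CD44lo-med CD8+ splenocytes from both genotypes were cultured with IL-7 plus IL-15, which keep T cells alive without antigen, over 72 h. The labels give no age or sex, and name no animal for any library, so replicate spread here may be technical only. Each library pools many cells, so a site open in more cells and a site more open per cell cannot be told apart. The sorted cell type was not checked against marker genes, since no mm9 gene annotation was used here.

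The promoters are shown first because the region nearest each gene was listed in all 4 libraries. Each is the 250 bases before the annotated start in RefSeq (build GRCm38.p6), 5′ to 3′ on the gene's strand. Capitals mark matches to any of the 4 motifs searched on both strands.
Id2 promoter, chr12:25096093-25096342, minus strand: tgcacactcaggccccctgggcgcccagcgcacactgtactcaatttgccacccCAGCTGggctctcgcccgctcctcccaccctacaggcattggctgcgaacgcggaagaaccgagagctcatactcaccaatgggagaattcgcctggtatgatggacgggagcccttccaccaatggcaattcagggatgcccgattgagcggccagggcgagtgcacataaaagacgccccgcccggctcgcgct
Id3 promoter, chr4:136143572-136143821, plus strand: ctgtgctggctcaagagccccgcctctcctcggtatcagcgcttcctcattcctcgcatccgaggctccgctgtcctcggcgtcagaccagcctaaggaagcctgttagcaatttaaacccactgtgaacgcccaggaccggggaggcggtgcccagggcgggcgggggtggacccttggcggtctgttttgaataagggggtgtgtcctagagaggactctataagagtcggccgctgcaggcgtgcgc
The promoter coordinates are of GRCm38.p6 and are not those of the peaks, and whether these bases lie under the mm9 peaks was not determined. The E-box form CAGCTG matched once before Id2, from base 196 to base 191 upstream of the start, and not before Id3. It was present in 13.0% of 32851 RefSeq promoters of the same length. The E-box form CACCTG (17.2% of promoters), the TCF/LEF core CTTTGA (13.8%) and the STAT form TTCNNNGAA (7.02%) had no match in either sequence. These motifs do not overlap in the sequences printed, and a match is a description of letters only. Both promoters had 62.8% G or C, above 78.3% of RefSeq promoters.

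The lists were 17521 and 11073 peaks long for WT replicates 1 and 2, and 34788 and 21353 long for the DKO replicates, so a site was more likely to be listed in DKO replicate 1 at any locus. In the lists the fold enrichment, the authors' own value, compares the summit pileup (fragments stacked at the highest point) with the local background. Chromosome Y had 55 and 57 peaks in the DKO lists and 0 in both WT lists, so a difference in Y signal went with genotype in every comparison here. Its part in the results cannot be told apart from that of genotype in these libraries and was not tested. A region without a peak in a library did not reach that library's list, which is not the same as closed chromatin.

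More sites were listed in DKO cells on average at both genes, but the genotypes overlapped. At Id2, WT replicates 1 and 2 listed 5 and 2 peaks and DKO replicates 1 and 2 listed 16 and 5. At Id3 the same libraries listed 6, 2, 10 and 5 peaks. DKO replicate 1 was highest and WT replicate 2 lowest at both genes, while WT replicate 1 and DKO replicate 2 were level at Id2 and WT replicate 1 was 1 peak higher at Id3. The means at Id2 were 3.5 ± 2.12 for WT and 10.5 ± 7.78 for DKO (SD, n = 2 each), a difference of 7 peaks (exact two-sided permutation p = 0.67). At Id3 they were 4 ± 2.83 and 7.5 ± 3.54 (SD, n = 2 each), a difference of 3.5 peaks (exact two-sided permutation p = 0.67). The smallest p that 2 against 2 libraries allow is 0.33. Over the whole lists the DKO mean was 1.96 times the WT mean, against 3 times at Id2 and 1.88 times at Id3. With every list held to the 11073 peaks of highest −log10 p, the length of the shortest list, the difference was 0.5 peaks at each gene. Its size also rests on single libraries: it was 1.5 peaks at Id2 and 1 at Id3 without DKO replicate 1, and 12.5 and 6 without DKO replicate 2. At Id3 it was 5.5 without WT replicate 1 and 1.5 without WT replicate 2.

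**Figure D1:**
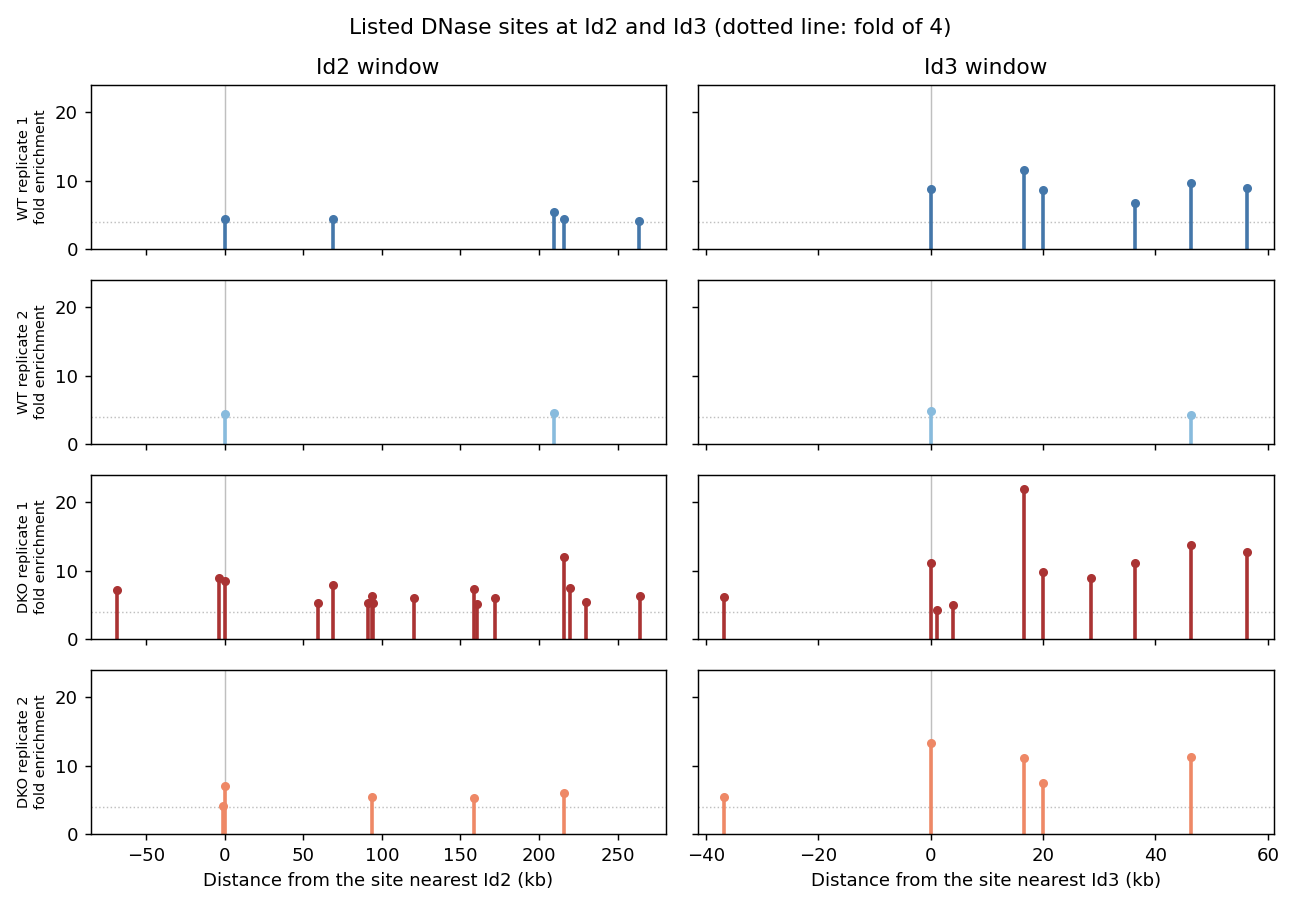
Fold enrichment (vertical axis, ratio) of every listed site against its distance in kb from the site nearest the gene (horizontal axis), for Id2 on the left and Id3 on the right, with 1 row per library and a dotted line at a fold of 4. DKO replicate 1 has 16 sites at Id2 and 10 at Id3, and WT replicate 2 has 2 at each, while the site at 0 kb is present in every row.

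The Id2 and Id3 windows differed in how strong their sites were within a list. At Id2 the median fold was 4.47 and 4.48 in the WT libraries (replicates 1 and 2) and 6.32 and 5.44 in the DKO libraries. Each of these lay below the median of its own whole list, which was 6.43, 6.13, 8.50 and 7.24. Of the 28 Id2 peaks, 3 exceeded the median of their list, all in DKO replicate 1. At Id3 the median fold was 8.93, 4.55, 10.5 and 11.1 in the same order. All 6 peaks of WT replicate 1, 7 of 10 of DKO replicate 1 and 4 of 5 of DKO replicate 2 exceeded their list's median, but neither peak of WT replicate 2 did. The Id3 sites therefore stood in the upper part of 3 lists and in the lower part of the fourth. No test was made of this difference between the windows, which share the libraries.

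The site nearest Id2 was listed in every library and was the only Id2 region of which this was true. That is 1 of 19 regions at Id2, and 2 of 10 at Id3, against 20.7% of all regions. It spanned chr12:25780914-25781166, at the upper end of the stated gene position. Id2 is read from the minus strand, so this end is its start. Here and at Id3, start site below means the region nearest the gene, placed by an approximate mm9 gene position. The summit pileup was 18 fragments in WT replicate 1 and 17 in WT replicate 2, against 43 and 26 for the DKO replicates. The fold enrichment was 4.43 and 4.37 in WT, against 8.58 and 7.09 for DKO. Both DKO libraries were above both WT libraries on each measure. The same order held for the median fold of the whole lists, 6.43 and 6.13 in WT against 8.50 and 7.24 in DKO. It also held for the median pileup at regions listed in all 4 libraries, 24 and 20 against 45 and 27 fragments. The order at this site was therefore that of the lists in general. The local background was 3.29 and 3.12 fragments in WT, against 4.13 and 2.81 for DKO, so the genotypes overlapped there. The summits of the 4 libraries lay within 47 bp of each other. At equal list lengths, 0 Id2 regions were listed in all 4 libraries.

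The site nearest Id3 was also listed in every library, with higher values in DKO than in WT and a wide gap within WT. It spanned chr4:135699524-135699771. The summit pileup was 37 fragments in WT replicate 1 and 16 in WT replicate 2, against 51 and 52 for the DKO replicates. The fold enrichment was 8.87 and 4.80 in WT, against 11.1 and 13.3 for DKO. Both DKO libraries were above both WT libraries, which again was the order of the list medians. WT replicate 2 was far below WT replicate 1. The summits lay within 22 bp of each other.

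Because the lists differ in length and summit pileup, the 8068 regions listed in all 4 libraries were ranked by fold within each library. The lowest percentile is 0 and the highest 100. The 3 member regions listed everywhere could be placed on this scale. For the Id2 start site the percentiles were 2.16 and 3.45 in WT and 10.4 and 19.4 in DKO. The genotypes did not overlap, with means of 2.81 ± 0.911 in WT and 14.9 ± 6.35 in DKO (SD, n = 2 each). It was in the lower part of the shared regions in all 4 libraries, and near the bottom in WT. Within the whole lists its fold was above 8.63% and 7.09% of peaks in WT, and above 51.4% and 48.1% in DKO. Both DKO ranks exceeded both WT ranks at 1 of the 3 member regions, against 19.1% of all 8068, and at 0 of 3 both lay below, against 19.0%. A separation of this kind is therefore common among shared regions. Over all 8068 the rank difference ran from -32.5 to 31.7 percentile points between the 5th and 95th percentiles, and that of the Id2 start site was 12.1. Without WT replicate 2, and ranked among the 12582 regions that the other 3 libraries listed, it was 19.3.

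At Id3 the ranks of the WT libraries were far apart, and the separation seen in fold did not carry over to rank. The start site stood at 71.0 and 10.4 in WT and at 29.3 and 84.9 in DKO, for replicates 1 and 2. The genotypes overlapped, although the DKO mean was 16.4 points higher. The remaining shared region lay 46.3 kb from it, at chr4:135745849-135746114, with percentiles of 80.3 and 2.57 in WT and 55.5 and 68.3 in DKO. Its folds were 9.64, 4.29, 13.8 and 11.3 and its pileups 30, 12, 37 and 28 fragments, for WT replicates 1 and 2 and DKO replicates 1 and 2. WT replicate 1 ranked above both DKO libraries and WT replicate 2 below both. Without WT replicate 2 the median rank difference of the Id3 regions was -12.8 in place of 18.5, so its direction depended on that library. The first median is over 4 regions and the second over 2, since more regions were shared without that list. For the start site alone the difference was -12.0 without WT replicate 2 and -9.19 without DKO replicate 2. The median was 54.2 without WT replicate 1, 35.6 without DKO replicate 1 and 3.38 without DKO replicate 2.

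**Figure D2:**
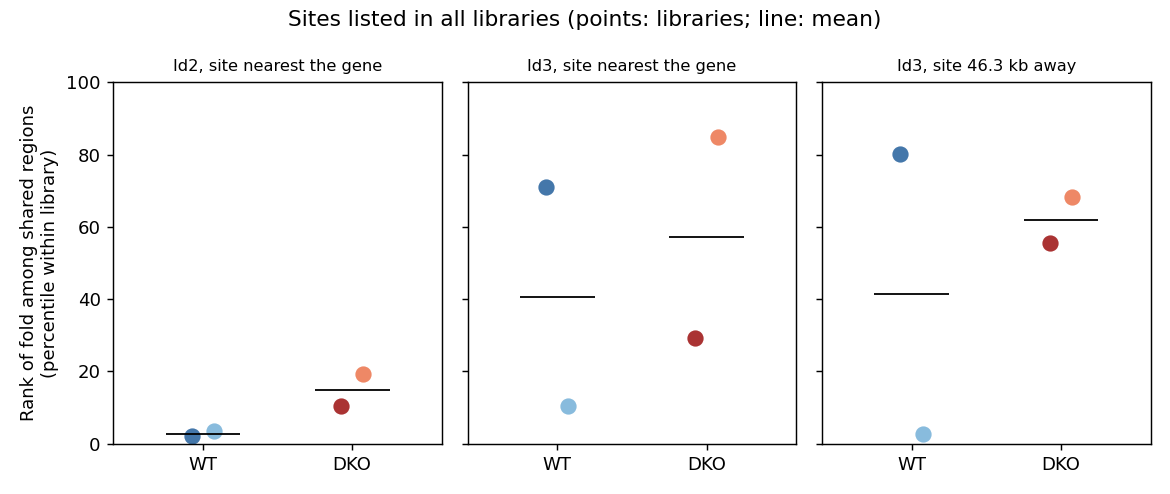
Percentile rank of the fold enrichment (vertical axis) among regions listed in all libraries, for the 3 member regions listed everywhere, with a point per library (darker for replicate 1) and a line at the mean of each genotype. The WT and DKO points are apart at the Id2 start site, at 2.16 and 3.45 against 10.4 and 19.4, and are mixed at both Id3 sites.

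Away from the start sites, most Id2 regions were listed in DKO replicate 1 alone. Of 19 regions, 14 had no WT peak and 2 had no DKO peak. In the Id3 window 4 of 10 had no WT peak, and DKO replicate 1 listed all 10, against 88.6% of all regions. Among all 38986 regions, 19598 had no WT peak and 2494 no DKO peak.

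A pair of Id2 regions was listed in both DKO libraries and in neither WT library, which is 2 of 19, against 14.3% of all regions. The nearer, chr12:25874425-25874604, lay 93.5 kb from the start site on the upstream side, with folds of 6.39 and 5.44 and pileups of 22 and 15 fragments in DKO replicates 1 and 2. The farther, chr12:25939693-25939966, lay 159 kb away with folds of 7.35 and 5.24 and pileups of 21 and 12. Their summits were 4 bp and 16 bp apart between the libraries. At Id3, 1 of 10 regions had this pattern, chr4:135662824-135663036, 36.7 kb below the start site, with folds of 6.20 and 5.44, pileups of 13 and 11 and summits 3 bp apart. These shares, 10.5% and 10%, were below the background. All 6 folds were under the median of their lists. With the lists held to equal length neither gene had a region of this kind (0 at each). Without DKO replicate 2 there were 13 at Id2 and 4 at Id3, and without WT replicate 1 there were 3 at Id3, and removing a list cannot lower these counts.

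The region with the opposite pattern was chr12:25990678-25991046, 210 kb upstream of Id2. It was listed in both WT libraries and neither DKO library, which is 1 of 19 at Id2 and 0 of 10 at Id3, against 0.631% of all regions. Its folds were 5.478 and 4.601 and its pileups 15 and 12 fragments in WT replicates 1 and 2. The WT peaks met only at their edges, with summits 116 bp apart, the widest spacing of any member region. When a library's peaks had to cover at least 50% of a region to count, no WT-only region was left, and none was left at equal list lengths or at a −log10 q of at least 5.

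The strongest Id2 site by fold was chr12:25996656-25996918, 216 kb upstream. Its fold was 4.47 in WT replicate 1, 12.04 in DKO replicate 1 and 5.95 in the other DKO library, with pileups of 12, 32 and 13 fragments, and it was not listed in WT replicate 2. DKO replicate 1 was the only high value, and the other DKO library was close to WT replicate 1 in pileup. The next strongest was chr12:25777256-25777342, 3.74 kb from the start site on the side of the gene, listed in DKO replicate 1 alone with a fold of 8.92 and a pileup of 36 fragments. DKO replicate 2 instead listed chr12:25780027-25780174, 0.94 kb from the start site, which no other library held, with a fold of 4.19. That last region was named after its values were seen.

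In the Id3 window the strongest site was not the one nearest the gene. It was chr4:135716132-135716284, 16.6 kb away, with folds of 11.6 in WT replicate 1, 21.9 in DKO replicate 1 and 11.1 in its companion, and pileups of 34, 59 and 30 fragments. WT replicate 1 and DKO replicate 2 had similar folds and pileups, and WT replicate 2 did not list it. In DKO replicate 1 its fold was above 98.9% of that list in WT replicate 1 above 95.9% and in DKO replicate 2 above 84.3%. Another region listed in the same 3 libraries, chr4:135719542-135719779, had folds of 8.60, 9.86 and 7.51. It was named after its values were seen. So were the 2 regions listed in replicates 1 of both genotypes alone, 36.4 and 56.4 kb away. Their folds were 6.70 and 8.98 in WT and 11.2 and 12.8 in DKO. That pattern was found at 2 of 10 Id3 regions and 1 of 19 Id2 regions, against 5.28% of all regions. The pattern of 3 libraries was found at the same numbers of regions, against 11.6%. The protein-coding genes next to Id3 on the higher side in RefSeq are E2f2, a cell-cycle transcription factor, and Asap3, and which of these regions lies at which gene was not determined. On the upstream side of Id2 the first neighbours in RefSeq are non-coding RNA genes such as Gm17746, and on the other side Kidins220 is the first.

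Regions listed in DKO replicate 1 alone made up 11 of 19 at Id2 and 3 of 10 at Id3, against 31.6% of all regions. At Id2 their folds ran from 5.10 to 8.92 with a median of 6.03, and the median for all regions of this kind was 6.16. To set the libraries on 1 scale, each pileup was divided by the library's median pileup at the 8068 shared regions, which was 24 and 20 fragments for WT and 45 and 27 for DKO, replicates 1 and 2. On this relative scale the smallest pileup listed was 0.417, 0.45, 0.178 and 0.296 in the same order. DKO replicate 1 thus listed sites of lower relative pileup than any other library. Of the 11 regions at Id2 listed in DKO replicate 1 alone, 9 had a relative pileup below the smallest in the WT replicate 1 list, 10 below that of WT replicate 2 and 2 below that of DKO replicate 2. The 9 were thus weaker, on this scale, than every peak that WT replicate 1 listed. Over all 12329 regions listed in DKO replicate 1 alone, 8159 (66.2%) were below the smallest in WT replicate 1. Of the same 12329, 9165 were below that of WT replicate 2 and 4306 below that of DKO replicate 2. At Id3, 0 of 3 were below the smallest in WT replicate 1, 1 below that of WT replicate 2 and 0 below that of DKO replicate 2. Their relative pileups ran from 0.444 to 0.511. Each limit is the smallest pileup anywhere in a list, and a site with a higher local background needs a larger pileup for the same fold. A value above a limit therefore does not show that the library could have listed that site.

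The DKO-only regions at Id2 stood close to the WT limits. The nearer DKO-only region had relative pileups of 0.489 and 0.556 and the farther 0.467 and 0.444, against the WT limits of 0.417 and 0.45. The DKO-only region at Id3 had 0.289 and 0.407 in DKO replicates 1 and 2, below both WT limits. The WT-only region, at 0.625 and 0.60, was above the DKO limits of 0.178 and 0.296. The Id2 start site had relative pileups of 0.75 and 0.85 in WT and 0.956 and 0.963 in DKO, with means of 0.80 ± 0.0707 and 0.959 ± 0.00524 (SD, n = 2 each). The genotypes did not overlap here either, and the mean log2 difference was 0.26, inside the range of -0.71 to 0.49 between the 5th and 95th percentiles of shared regions. The Id3 start site had 1.54 and 0.80 in WT and 1.13 and 1.93 in DKO, which overlapped. At all 6 Id3 regions that both replicates 1 listed, the relative pileup was higher in WT than in DKO, while at the 2 that WT replicate 2 listed it was lower than in either DKO library. Over all 15162 regions that both replicates 1 listed, it was higher in WT at 62.9%. The matching share over all regions was not computed for WT replicate 2. At Id2 it was higher in WT replicate 1 at 1 of 3 such regions.

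**Figure D3:**
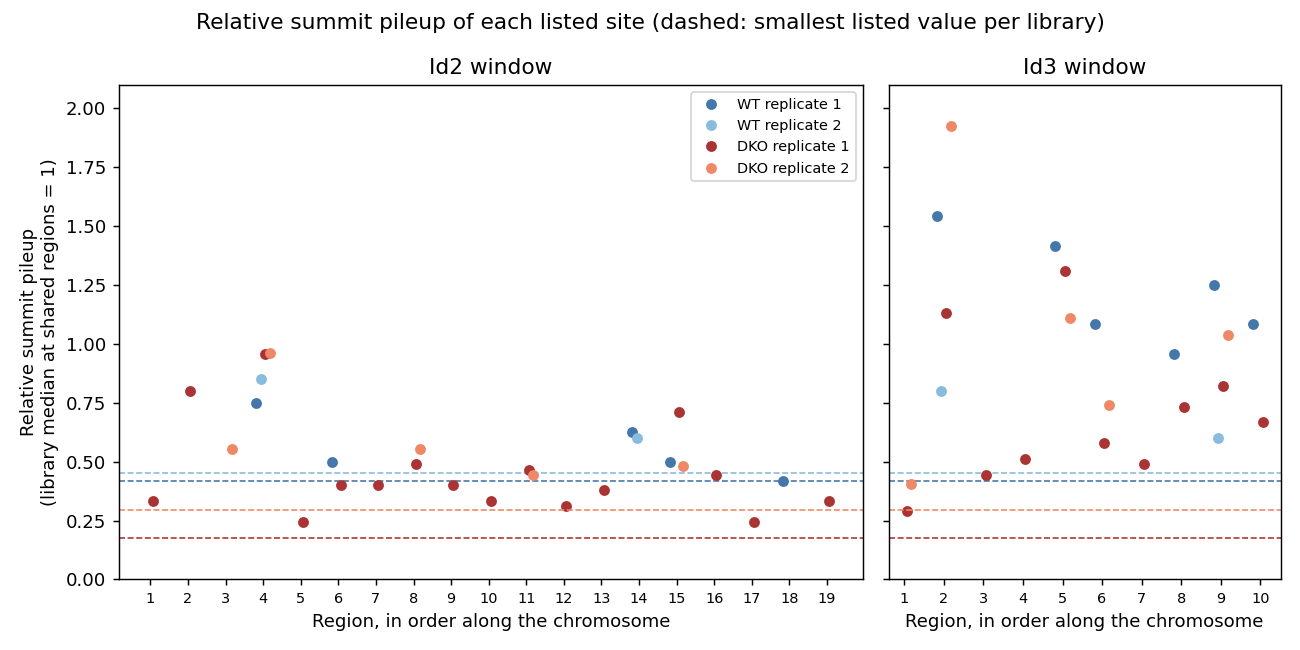
Summit pileup relative to each library's median at shared regions (vertical axis, ratio) for every listed region in order along the chromosome, Id2 on the left and Id3 on the right, with a dashed line at the smallest relative pileup each library listed. Most Id2 regions listed in DKO replicate 1 alone lie under the WT lines at 0.417 and 0.45, and the 3 at Id3 lie between 0.444 and 0.511.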

How the data were processed

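DNase-seq was analysed in 2 WT and 2 DKO libraries, each with its own peak list on mm9. Genotype and replicate number came from the sample titles. Bowtie2 2.2.5, FastQC and MACS2 2.1.1 are named in the submitters' processing notes. What settings and control library were used, and how duplicates were treated, is not given in the sources used here. For each peak the authors deposited a fold enrichment (a ratio), a −log10 p, a −log10 q and a score derived from the −log10 q. The smallest deposited fold was just above 4. Peak numbers in the names skip 1 value inside each window in each DKO list and 0 in the WT lists. Over the whole lists, 1530 and 871 numbers were missing in WT and 1476 and 908 in DKO, replicates 1 and 2. Peaks had thus been removed after calling from every list. Total reads are unknown.

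Starts were converted to count from 1. Peaks overlapping by at least 1 bp were merged. The pileup and background were solved from the fold and p, taking the fold as (pileup + 1) / (background + 1) and p as a Poisson upper tail. Every solved pileup was whole within 0.02, and counting and solving were tested on simulated data. Peak numbers were compared by an exact two-sided permutation test over libraries. The members and lists were chosen with earlier results of these data known. The naming rule took regions listed in all 4 libraries, in both libraries of 1 genotype alone, nearest each gene, or among the 3 highest folds of a window. Planned checks of cell type markers and E-protein genes needed mm9 gene positions and were not run. Python 3.11.15, pandas 2.3.3, numpy 2.4.6, scipy 1.17.1 and matplotlib 3.10.9 were used.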

Additional observations from a re-analysis of the deposited data

How the results depend on the processing

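More DKO than WT peaks were listed at both genes, on average, under every alternative run, with differences of 1.5 to 12.5 peaks at Id2 and 1 to 6 at Id3 when 1 library was left out. At equal list lengths the difference was 0.5 peaks at each gene, the smallest of these. It was 4 and 2.5 at a −log10 q of at least 10, and 3.5 and 2 in the window cut to 50% of its length. The replicate block (same-numbered libraries paired) gave the same differences, 7 and 3.5 peaks, as its construction fixes; the numbers are not known to pair animals, and deviations of same-numbered libraries had r = -0.0087 across 8068 shared regions.

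Counts of regions were small and moved with the threshold. At Id2, DKO-only regions went from 2 to 3 at a −log10 q of at least 5. The region added was chr12:25996656-25996918, whose −log10 q in WT replicate 1 was 3.77. At a −log10 q of at least 10 the count was 1, and neither of the 2 regions named above was left. That 1 was the start site, with −log10 q of 25.5 and 13.4 in DKO and 5.31 and 4.73 in WT. DKO-only regions went to 1 with the window cut to 50% of its length around the gene, and to 0 at equal list lengths. They numbered 2 to 13 when 1 library was left out. The WT-only region was lost (0) at a −log10 q of at least 5 or 10, at equal list lengths, with cover of at least 50% of the region and in the shorter window, and 1 to 2 were found with 1 library left out. The Id2 start site left the set listed in all 4 libraries (0) at a −log10 q of at least 5 or 10 and at equal lengths, and 1 to 2 regions were in it with 1 library left out. At Id3, the DKO-only region was lost (0) at a −log10 q of at least 10, at equal lengths and in the shorter window, with 1 to 4 when 1 library was left out. Regions listed in all 4 went from 2 to 1 at a −log10 q of at least 5, with cover of at least 50% and in the shorter window, to 0 at 10, and were 2 to 4 with 1 library left out.

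The rank difference of the Id2 start site was 19.3 when ranked by −log10 p and 20.1 by solved pileup. With 1 library left out the median over the shared Id2 regions ran from 10.4 to 23.0, the last over 2 regions, and the start site alone, added after seeing the data, from 10.4 to 19.3. At Id3 the median ran from -12.8, over 4 regions, to 54.2, over 2 regions. The relative pileup, an alternative added after seeing the data, gave median log2 differences of 0.26 and 0.25. At a −log10 q of 5 or 10 no rank could be given for Id2, and at 10 none for Id3. The cause of these shifts was not tested.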
